A study of Mus musculus with 6 samples.

Results

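Pericyte and smooth muscle markers were followed as 10 genes of the deposited count table, chosen by symbol: Myh11, Acta2, Tagln, Myl9, Cnn1, Des, Rgs5, Notch3, Pdgfrb and Cspg4. All 10 of 10 matched an Ensembl mouse ID among the 57180 IDs of the table, and all 10 passed the low-count filter, which kept 23055 genes. The libraries were made from adipose tissue macrophages, sorted by the surface proteins F4/80 and CD11b per the series' design text, from white adipose tissue of mice labelled WT. The extraction protocol in the labels speaks instead of RNA taken from the tissue, so whether a mural marker's level stands for tissue content or for material that came with sorted macrophages cannot be told apart here. The HFD+MGIG group (3 libraries) came from mice on a high-fat diet (HFD) that were also given magnesium isoglycyrrhizinate (MGIG), a magnesium salt of a liquorice-derived triterpenoid, and the HFD group (3 libraries) from mice on the diet alone. Both groups thus share the diet, and no lean group was analysed here. The labels state neither dose, duration, age nor sex, nor whether each library is a separate animal, so the spread behind the p-values is that of these libraries and may be technical.

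Mural cells are the contractile and supporting cells that lie on the outside of blood vessels: smooth muscle cells around arteries and veins, and pericytes around capillaries. Smooth muscle cells contract through a smooth muscle myosin and actin apparatus whose genes are driven by serum response factor (SRF) and its partner myocardin at DNA elements called CArG boxes. Pericytes are recruited to the endothelium by PDGF-B acting on the receptor PDGFR-beta and matured by Jagged1 acting on Notch3. In adipose tissue, mural cells also include precursors of adipocytes, and none of the 10 genes is known as a macrophage marker.

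Upstream sequences are shown for Acta2 and Myl9, a pair of contractile genes with near-equal fold changes, because their promoters held CArG-like boxes. RefSeq's table (build GRCm38.p6) had a start-site window for 7 of the 10 members, and the 250 bases before the start were searched for the CArG box with at most 1 G or C allowed in its core of 6 bases, a pattern that reads as a match on both strands. Acta2 (minus strand, chr19:34255374-34255623) and Myl9 (plus strand, chr2:156775214-156775463) held 2 each, in capitals below, and the windows of Cnn1, Des, Rgs5, Notch3 and Cspg4 held 0.
Acta2: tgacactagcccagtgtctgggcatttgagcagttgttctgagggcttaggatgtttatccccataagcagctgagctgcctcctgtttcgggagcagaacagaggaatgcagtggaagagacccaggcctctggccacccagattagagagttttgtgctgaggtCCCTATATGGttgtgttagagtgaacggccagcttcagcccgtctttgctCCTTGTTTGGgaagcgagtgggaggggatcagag
Myl9: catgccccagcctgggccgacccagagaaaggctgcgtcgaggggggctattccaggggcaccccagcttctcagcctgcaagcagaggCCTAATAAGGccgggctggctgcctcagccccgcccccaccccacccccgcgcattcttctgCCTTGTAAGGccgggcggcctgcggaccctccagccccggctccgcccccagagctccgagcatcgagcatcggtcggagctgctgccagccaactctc
The boxes began 84 and 34 bases before the start in Acta2, and 161 and 99 bases before it in Myl9. The first box of Myl9 alone had all 6 core bases as A or T. Of the 32851 windows of that length in the table, 8.59% held at least 1 such box and 0.67% held at least 2. A match is a description of the letters and not evidence of a bound site.

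The HFD+MGIG libraries were shallower and of another make-up than the HFD libraries. Total counts were 2214456 to 4904302 in HFD+MGIG and 14437605 to 16740417 in HFD. Genes of olfactory, vomeronasal and taste receptors, of keratin-associated proteins and of beta-defensins, 1596 genes taken here as largely silent in these cells, held 2.93% to 6.42% of counts in HFD+MGIG and 0.0624% to 0.280% in HFD. From them a background bound was set for every library, the 90th percentile of their counts per kb of exon, and as CPM per kb (CPM are counts scaled to a common library total) it was 4.58 to 9.41 in HFD+MGIG and 0.128 to 0.421 in HFD. The library HFD+MGIG 2 stood apart, with 62.4% of its counts on protein-coding genes against 78.9% and 82.7% in the other HFD+MGIG libraries and 95.0% to 96.1% in HFD. Its summed level of 15 macrophage identity markers was 7311 CPM, against 16263 and 18719 CPM in the other HFD+MGIG libraries and 17044 to 19107 CPM in HFD. The labelled cell type was carried by its defining markers in both groups: Lyz2, the macrophage lysozyme, had 6709 ± 2597 CPM in HFD+MGIG and 7881 ± 485 CPM in HFD (SD, n = 3 each), and the F4/80 gene Adgre1 stood at 283 ± 132 CPM in HFD+MGIG and 515 ± 41.2 CPM in HFD.

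The mural cell markers fell in the HFD+MGIG libraries. Of the 10 members, 9 were lower than in HFD and 0 higher in edgeR's quasi-likelihood test (adjusted p = 0.000484 to 0.0242 for the 9), with Cspg4 as the exception. In that fit 17.8% of all 23055 genes were called lower and 42.9% higher. Among protein-coding genes outside the silent families, 26.8% were called lower and 21% higher, and among genes with little background 43% were called lower and 2.11% higher. The median log2 fold change of the members was −1.57, beside 0.38 over all genes tested and −0.91 over the 2604 genes with little background. The set of 2604, called background-limited here, holds protein-coding genes of 2 or more exon blocks whose mean bound did not exceed 0.25 of the mean CPM over the 6 libraries. A gene could thus enter the set through a high HFD level alone. Summed over the 10 members, the level was 1023, 583 and 923 CPM in HFD+MGIG 1, 2 and 3, against 2365, 2144 and 1551 CPM in HFD 1, 2 and 3, so the groups did not overlap. The share of all genes whose groups did not overlap is not given here. Non-overlap, here and for single members below, is therefore a description and not a trait particular to the members. A sort for F4/80 and CD11b would be expected to deplete mural cells, and its purity was not measured here. In these bulk libraries, fewer mural cells, less of these RNAs per mural cell and less RNA carried over into a sort cannot be told apart.

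**Figure D1:**
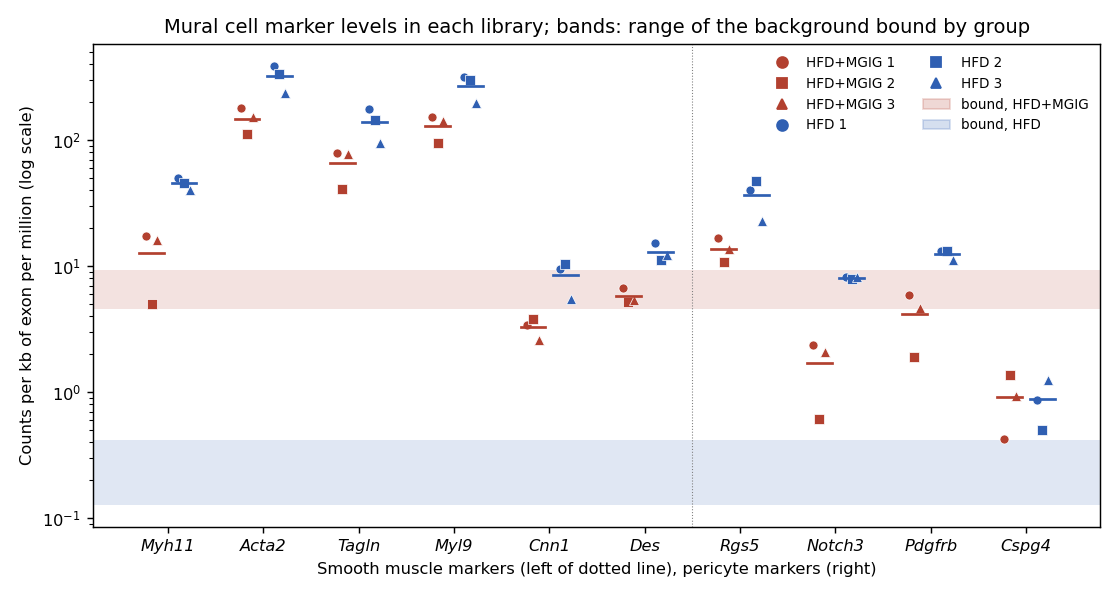
Level of each mural cell marker in CPM per kb of exon on a log axis, with HFD+MGIG libraries in red and HFD libraries in blue; horizontal strokes are group means and shaded bands span the background bound over the libraries of each group. For Cnn1, Notch3 and Cspg4 the 3 HFD+MGIG libraries lie below their own bounds, while Acta2, Myl9, Tagln and Rgs5 lie above them.

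The contractile genes came first by level. Acta2, the smooth muscle alpha-actin of the thin filaments, had 391, 243 and 337 CPM in HFD+MGIG 1, 2 and 3, against 850, 733 and 523 CPM in HFD 1, 2 and 3. Myl9, the regulatory light chain of smooth muscle myosin, had 178, 110 and 165 CPM in the HFD+MGIG libraries, against 367, 349 and 227 CPM in the HFD libraries. Tagln, the actin-binding protein transgelin (SM22-alpha), had 157, 81.7 and 155 CPM in HFD+MGIG and 352, 284 and 189 CPM in HFD. For these 3 genes the groups did not overlap, HFD+MGIG 2 was the lowest of its group and HFD 3 the lowest of its own. Their log2 fold changes (HFD+MGIG over HFD) were −1.40 for Acta2 (SE 0.471, edgeR adjusted p = 0.0221), −1.34 for Myl9 (SE 0.440, edgeR adjusted p = 0.0195) and −1.34 for Tagln (SE 0.458, edgeR adjusted p = 0.0242). All 3 calls were lost without HFD 1 (edgeR adjusted p = 0.0666, 0.0537 and 0.0705), without HFD 2 (0.0601, 0.0631 and 0.0559) and without HFD+MGIG 3 (0.0912, 0.0735 and 0.0703). Tagln shares 62.4% of its 1988 exonic bases with the antisense gene Gm48529, and no strand is stated in the sources used here, so counts of either gene cannot be told apart. Acta2 and Myl9 have close paralogs among the actins and the myosin light chains. The deposited counts of Acta2 were fractional in 4 of 6 libraries, those of Tagln in 5 of 6 and those of Myl9 in 0 of 6. Notch3 had fractional counts in 3 of 6, and Myh11 and Rgs5 in 1 of 6 each. A part of the reads of such genes may have been shared out between genes. Fractional counts were common, at 33.3% to 41.8% of the genes with counts in each library.

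Myh11, the smooth muscle myosin heavy chain and the marker most restricted to mature smooth muscle, was lower by more than the thin-filament genes in the fit. It had 131, 37.9 and 123 CPM in HFD+MGIG 1, 2 and 3, against 381, 350 and 305 CPM in HFD 1, 2 and 3, so the highest HFD+MGIG library was below the lowest HFD library. The gene (ENSMUSG00000018830; mm10 chromosome 16, 14194535 to 14291372, minus strand, 43 exon blocks) stood at −2.08 on the log2 fold change scale (SE 0.534; adjusted p = 0.00509 by edgeR). HFD+MGIG 2 held 84 counts of it, under the bound of 158 counts for a gene of that length in that library, and without that library the fold change was −1.69 (edgeR adjusted p = 7.21e-05).

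Cnn1 and Des were the scarcer contractile and cytoskeletal members. Cnn1, the actin-binding protein calponin that restrains actomyosin, had 9.40, 10.4 and 7.14 CPM in HFD+MGIG and 26.0, 28.3 and 14.97 CPM in HFD, which is −1.70 in log2 terms (SE 0.346; adjusted p = 0.00114 by edgeR). Des, the muscle intermediate filament desmin, had 25.3, 19.4 and 20.4 CPM in HFD+MGIG and 57.1, 41.9 and 46.3 CPM in HFD, with −1.44 (SE 0.292, edgeR adjusted p = 0.00108). The groups did not overlap for either gene. All 3 HFD+MGIG libraries were below their bounds for Cnn1, with 39, 23 and 35 counts, and 2 of 3 were above them for Des. The mean over HFD+MGIG libraries did not exceed the mean bound for 5 of the 10 members: Cnn1, Des (21.7 against 24.0 CPM), Notch3, Pdgfrb and Cspg4.

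Of the 4 pericyte markers, 3 were lower and Cspg4 was not called. Rgs5, a GTPase-activating protein of G protein signalling that is abundant in pericytes, had 75.4, 48.8 and 62.4 CPM in HFD+MGIG 1, 2 and 3, against 182, 216 and 103 CPM in HFD 1, 2 and 3. Pdgfrb, the receptor through which PDGF-B recruits mural cells, had 32.3, 10.4 and 25.5 CPM in HFD+MGIG and 72.5, 71.9 and 60.8 CPM in HFD. Its HFD+MGIG mean of 22.7 CPM was under a mean bound of 35.1 CPM, and HFD+MGIG 2 held 23 counts under a bound of 114. Notch3, the Notch receptor of mural cells, had 19.3, 4.97 and 16.9 CPM in HFD+MGIG and 65.9, 63.8 and 66.8 CPM in HFD. The groups did not overlap for these 3 genes, and the HFD libraries were close together for Notch3, with a highest to lowest ratio of 1.05, and 2.10 apart for Rgs5. The log2 fold changes were −1.72 for Rgs5 (SE 0.424, edgeR adjusted p = 0.00398), −1.83 for Pdgfrb (SE 0.416, edgeR adjusted p = 0.00236) and −2.48 for Notch3 (SE 0.440, edgeR adjusted p = 0.000484), which was the lowest of the 10 members in this fit. Notch3 (ENSMUSG00000038146; mm10 chromosome 17, 32120820 to 32166852, minus strand, 33 exon blocks) had 80, 11 and 83 counts in HFD+MGIG, under its bounds of 176, 169 and 182 counts, so its level there lay within the range of silent genes. In HFD it had 1104, 921 and 1075 counts, far over bounds of 17.3, 49.2 and 27.7 counts.

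Cspg4, the NG2 proteoglycan of pericytes, had 5.06, 16.3 and 11.2 CPM in HFD+MGIG and 10.4, 6.03 and 14.97 CPM in HFD, and the groups overlapped. The fitted log2 value was −0.33 (SE 0.438; adjusted p = 0.518 by edgeR), and the sign turned with library totals as the scale (0.05), with the fit over genes of at least 5 CPM in 3 libraries (0.13) and with protein-coding genes alone (0.23). It has the longest exons of the 10, 11931 bases, and its 21, 36 and 55 counts in HFD+MGIG lay under bounds of 259, 249 and 268 counts. The call for Cspg4 thus depended on the treatment of background: it was not called as deposited and passed as lower once the median background was subtracted, where all 3 HFD+MGIG libraries were at 0.

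**Figure D2:**
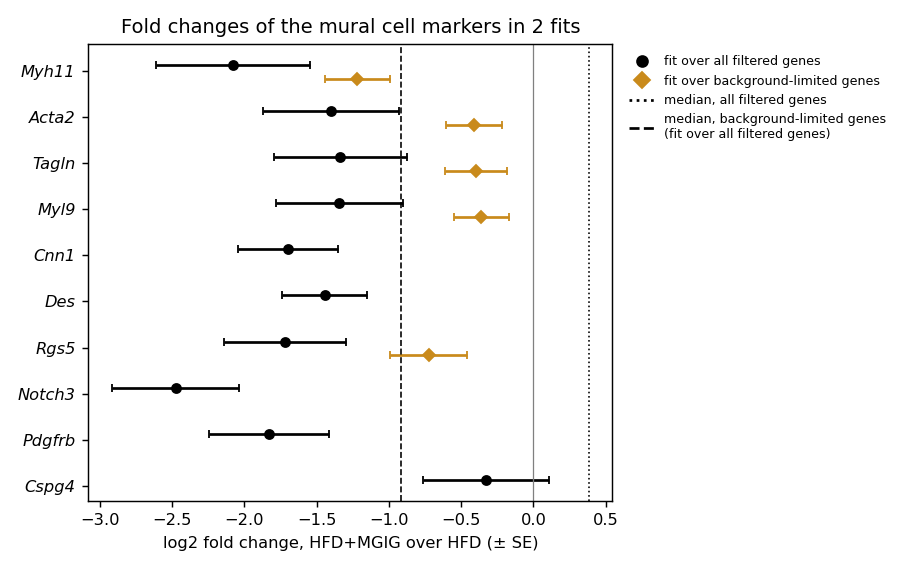
Log2 fold change (HFD+MGIG over HFD, ± SE) of each marker in the fit over all filtered genes (black) and, for the 5 markers in it, in the fit over background-limited genes (orange). The dotted line marks the median of all filtered genes at 0.38 and the dashed line that of the background-limited genes at −0.91, both in the fit over all filtered genes.

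Per kb of exon the members spanned a wide range of levels. As CPM per kb, the HFD+MGIG means were 147 ± 34.0 for Acta2, 130 ± 30.9 for Myl9, 66.0 ± 21.6 for Tagln, 13.7 ± 2.93 for Rgs5 and 12.8 ± 6.78 for Myh11 (SD, n = 3), followed by Des, Pdgfrb, Cnn1, Notch3 and Cspg4 at 5.78, 4.15, 3.28, 1.70 and 0.909. In HFD the means on the same scale were 320 ± 75.6 for Acta2, 271 ± 65.4 for Myl9, 138 ± 41.2 for Tagln, 45.5 ± 5.02 for Myh11 and 36.7 ± 12.8 for Rgs5, followed by Des, Pdgfrb, Cnn1, Notch3 and Cspg4 at 12.9, 12.5, 8.44, 8.10 and 0.877. Of the neighbours in the HFD order, the libraries of Acta2 and Myl9 overlapped, as did those of Myh11 and Rgs5, of Des and Pdgfrb, and of Cnn1 and Notch3. The HFD libraries did not overlap between Myl9 and Tagln, Tagln and Myh11, Rgs5 and Des, Pdgfrb and Cnn1, or Notch3 and Cspg4. Acta2 made up 38.8% ± 2.67 of the members' counts in HFD+MGIG and 34.6% ± 1.19 in HFD.

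Within a group the members did not share 1 order of libraries. In HFD+MGIG, 8 of 10 members were lowest in HFD+MGIG 2 and highest in HFD+MGIG 1, while Cspg4 and Cnn1 were highest in HFD+MGIG 2. In HFD, 7 of 10 were lowest in HFD 3 and 6 highest in HFD 1, while Notch3 and Cspg4 were highest in HFD 3 and lowest in HFD 2. The summed level of the 6 smooth muscle members over that of the 4 pericyte members was 6.75, 6.26 and 6.96 in HFD+MGIG and 6.14, 4.996 and 5.32 in HFD.

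Fold changes ran with exon length among 9 of the members. The log2 value was −1.34 for Myl9 at 1162 exonic bases, −1.83 for Pdgfrb at 5478, −2.08 for Myh11 at 7599 and −2.48 for Notch3 at 8089. Between exon length and log2 fold change, Spearman's rho was −0.43 across the 10 genes, and −0.97 across 9 genes without Cspg4, which was left out after its values were seen. Across the 2604 background-limited genes rho was −0.26, and the median log2 fold change was −0.75 at up to 1.5 kb, −0.88 at 1.5 to 3 kb, −1.01 at 3 to 6 kb and −0.97 over 6 kb. Genes are not independent replicates, and the genes share the same 6 libraries, so these are descriptions with no test.

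**Figure D3:**
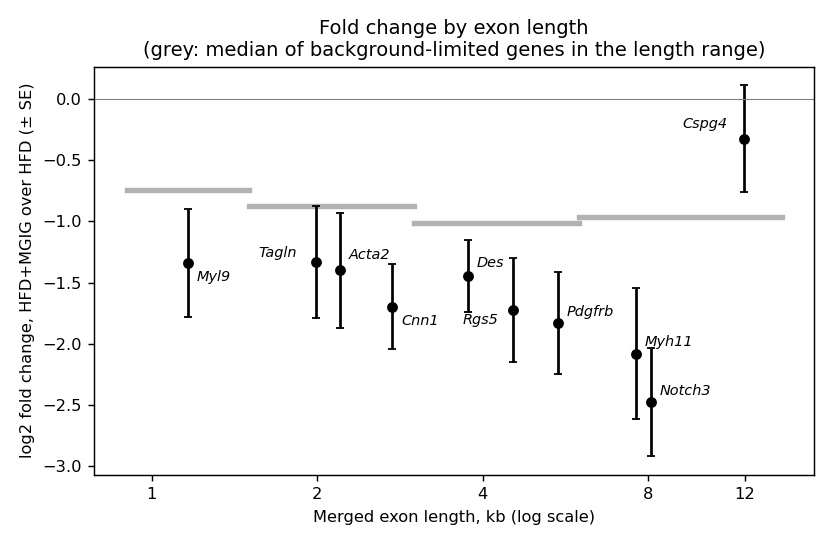
Log2 fold change (HFD+MGIG over HFD, ± SE) of the 10 markers against merged exon length in kb (log axis). Grey strokes are medians of background-limited genes in 4 length ranges, between −0.75 and −1.01. All 9 members called lower lie below the median of their length range, and Cspg4 lies above its own. The 9 were singled out by that call in the same fit, so their place is no separate result. Cnn1, Des, Notch3, Pdgfrb and Cspg4 are not themselves background-limited genes.

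On a scale set by the background-limited genes alone, the differences of the mural markers were smaller. In that fit 6.26% of the 2604 genes were called lower and 4.49% higher. It held 5 of the 10 members, and 1 of them passed: Myh11, at −1.22 in log2 terms (SE 0.226; adjusted p = 0.0137 by edgeR). Leaving out HFD 1 or HFD 2 ended that call (adjusted p = 0.0603 and 0.0539 by edgeR). The other 4 had −0.72 for Rgs5 (edgeR adjusted p = 0.124, and 0.0333 without HFD 3), −0.41 for Acta2 (0.229), −0.40 for Tagln (0.287) and −0.36 for Myl9 (0.281). Myh11 and Rgs5 entered the set through their HFD levels. In HFD+MGIG their means were 97.2 and 62.2 CPM, against mean bounds of 48.7 and 29.1 CPM. The call for Myh11 is thus not free of background in that group. Acta2, Tagln and Myl9 averaged 324, 131 and 151 CPM there, against mean bounds of 14.1, 12.7 and 7.44 CPM. When each library's silent-family share, on the log2 scale, entered the fit as a covariate, edgeR called 0 of the 10 members and 0 of all 23055 genes; at an unadjusted p under 0.05 there were 1 member, Cnn1, and 546 genes. That share did not overlap between the groups, so it and the treatment cannot be told apart. With the median background per kb subtracted from each library, 5 of the 10 members passed as lower, beside 1813 of all 17266 genes tested. The 5 were Cnn1, Des, Rgs5, Notch3 and Cspg4, the last with all 3 HFD+MGIG libraries at 0 after subtraction. With the bound subtracted instead, a setting chosen after seeing the data, 3 of 9 members passed as lower, Cnn1, Notch3 and Pdgfrb. That share was below the one over all genes, 5942 of 13577. In the same fit Myl9 turned to 0.037 on the log2 scale. Tagln alone lost its call over genes of at least 5 CPM in 3 libraries (edgeR adjusted p = 0.0587) and over protein-coding genes alone (0.0611).

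Ratios within a library do not depend on its scale, and smooth muscle members were therefore set against the related gene that non-muscle cells, macrophages included, use instead. The ratio of Acta2 to Actb, the cytoplasmic beta-actin, was 9.38%, 10.0% and 8.02% in HFD+MGIG 1, 2 and 3, against 22.8%, 22.8% and 15.9% in HFD 1, 2 and 3, so the groups did not overlap. On the log2 scale the difference (HFD+MGIG minus HFD) was −1.15 (two-sided exact permutation p = 0.1, and no smaller p is possible with 3 against 3 libraries; 0.6 adjusted over the 6 ratios). Actb itself had 3601 ± 1013 CPM in HFD+MGIG and 3412 ± 278 CPM in HFD (−0.20, edgeR adjusted p = 0.746). Of 10 non-muscle counterparts 5 passed as lower and 0 as higher, near the 43% lower among all background-limited genes, and in the background-limited fit 1 of 8 was lower and 1 higher. Actg1, the other cytoplasmic actin, had −1.06 and Vim had −1.41 (edgeR adjusted p = 0.099 and 0.026). For the other 5 ratios the groups overlapped. The log2 difference was −0.49 for Myh11 to Myh9, a non-muscle myosin heavy chain (exact permutation p = 0.2), −0.34 for Cnn1 to Cnn2, a calponin of many cell types (0.6), and −0.26 for Tagln to Tagln2 (0.4). It was −0.10 for Myl9 to Myl12a, a non-muscle light chain (exact permutation p = 0.6), and 0.02 for Des to Vim, the filament protein vimentin (1.0). Myl9 stood at 94.6%, 87.5% and 89.5% of Myl12a in HFD+MGIG and at 95.8%, 116% and 82.6% in HFD. The ratios depended on background. With the median background subtracted, Acta2 to Actb had −1.17, Cnn1 to Cnn2 −1.25 and Des to Vim −0.49 (exact permutation p = 0.1 each). Tagln to Tagln2 then had −0.28 (exact permutation p = 0.3), Myl9 to Myl12a −0.07 (0.8) and Myh11 to Myh9 0.0097.

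**Figure D4:**
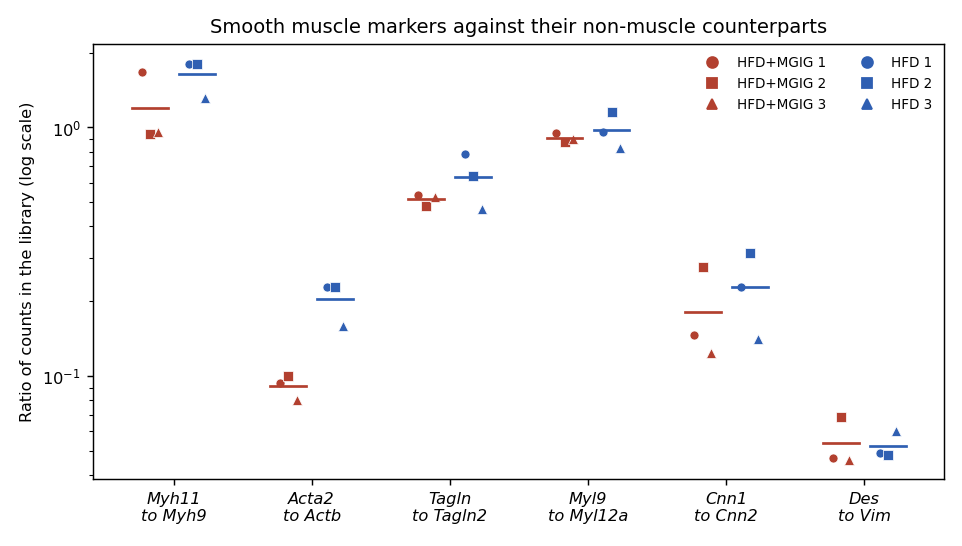
Ratio of the counts of 6 smooth muscle markers to those of a non-muscle counterpart in each library (log axis), HFD+MGIG in red and HFD in blue; strokes are arithmetic means. With no background subtracted, the groups are apart for Acta2 to Actb, at 8.02% to 10.0% against 15.9% to 22.8%, and overlap for the other 5 pairs.

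Other genes of mural cells were read from lists. Among 12 further smooth muscle genes, 8 passed as lower and 1 as higher, and the median log2 fold change was −1.25. Among 13 further pericyte genes, 9 passed as lower and 1 as higher, and the median was −1.43. Beside these stood 17.8% lower among all genes, 26.8% among protein-coding genes and 43% among background-limited genes. For 8 of the 12 and 10 of the 13, the mean over HFD+MGIG libraries did not exceed the bound. The background-limited fit held 2 of the smooth muscle genes and 3 of the pericyte genes, with 1 and 2 lower. Tpm1, a tropomyosin of the thin filament, had 81.8 ± 14.1 CPM in HFD+MGIG and 241 ± 29.5 CPM in HFD (−1.85, edgeR adjusted p = 0.00159), Cald1, the actin-binding protein caldesmon, had 86.8 ± 10.2 CPM in HFD+MGIG and 130 ± 19.6 CPM in HFD (−0.90, edgeR adjusted p = 0.0337), and Tpm2 had −1.35 (edgeR adjusted p = 0.00752). The single higher smooth muscle gene, Pln, the calcium pump inhibitor phospholamban, is named after its values were seen. It had 33.1 ± 14.02 CPM in HFD+MGIG and 6.19 ± 0.545 CPM in HFD (2.05, edgeR adjusted p = 0.000227), and 59.6% of its exonic bases are shared with Gm47644 on the opposite strand. Among the pericyte genes, Rgs4, a relative of Rgs5, had −1.23 (edgeR adjusted p = 0.0202) and Mcam, the adhesion molecule CD146, had −2.02 (edgeR adjusted p = 0.00116), with −1.12 among the background-limited genes (edgeR adjusted p = 0.0133). The higher one, P2ry14, a receptor for UDP-sugars, had 43.0 ± 17.1 CPM in HFD+MGIG and 16.9 ± 2.68 CPM in HFD (0.97, edgeR adjusted p = 0.0127), and its bound in HFD+MGIG averaged 70.8 CPM, over its mean level there.

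Genes that control mural cells were lower in 22 of 31 cases, beside 17.8% of all genes, 26.8% of protein-coding genes and 43% of background-limited genes. The count was 2 of 5 in the background-limited fit, where 6.26% of all genes were lower. It was 7 of 31 with the median background subtracted, beside 1813 of 17266 genes, and 0 with the silent-family covariate. Of 14 genes of the Notch pathway 11 passed as lower and 0 as higher (median log2 fold change −1.53), of 9 genes of SRF and myocardin control 6 passed as lower and 0 as higher (−1.14), and of 8 genes of PDGF and angiopoietin signalling 5 passed as lower and 0 as higher (−1.19). Csrp1, a LIM protein that assists SRF in smooth muscle, had 89.99 ± 36.4 CPM in HFD+MGIG and 251 ± 33.3 CPM in HFD (−1.75, edgeR adjusted p = 0.00549). Klf4, a transcription factor that opposes the contractile state and is also made by macrophages, had −1.18 (edgeR adjusted p = 0.0359), and Mrtfb, an SRF coactivator, had −0.47 (edgeR adjusted p = 0.128). Of the Notch genes, Rbpj, the DNA-binding partner of all Notch receptors, had −0.97 (edgeR adjusted p = 0.0789), and the receptors Notch2 and Notch1 had −1.24 and −1.22 (edgeR adjusted p = 0.031 and 0.00973). Tek, the angiopoietin receptor of endothelium, had 51.5 ± 26.4 CPM in HFD+MGIG and 158 ± 13.9 CPM in HFD (−1.87, edgeR adjusted p = 0.00519). The PDGF ligand genes Pdgfc and Pdgfd had −0.34 and −1.03 (edgeR adjusted p = 0.468 and 0.00988). The mean over HFD+MGIG libraries did not exceed the bound for 7 genes of the SRF list, 11 of the Notch list and 5 of the PDGF list.

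Most markers of other cell types of adipose tissue were also lower, beside 17.8% of all genes, 26.8% of protein-coding genes and 43% of background-limited genes. Among 15 endothelial markers, 14 passed as lower and 0 as higher (median log2 fold change −2.004). Their summed level was 630 to 1194 CPM in HFD+MGIG and 2984 to 3391 CPM in HFD. Plvap, Pecam1 and Ptprb, 3 membrane proteins of endothelium, had −2.004, −2.11 and −2.34 (edgeR adjusted p = 0.00397, 0.00408 and 0.00138). The summed mural level over the summed endothelial level was 0.932, 0.926 and 0.774 in HFD+MGIG and 0.748, 0.632 and 0.520 in HFD, higher in each HFD+MGIG library than in each HFD library; the sums were chosen with the results known and are given with no test. Of 10 fibroblast markers 6 were lower and 0 higher (summed 1274 to 1827 CPM in HFD+MGIG and 2247 to 3476 CPM in HFD); Col3a1 and Col1a1, fibrillar collagens, had −2.74 and −2.59 (edgeR adjusted p = 0.00139 and 0.00107), while Dcn, the proteoglycan decorin, had 0.03 (edgeR adjusted p = 0.965). Of 10 adipocyte markers 9 were lower and 0 higher (summed 1599 to 2305 CPM in HFD+MGIG and 3677 to 6003 CPM in HFD), among them Fabp4, Car3 and Cfd at −1.52, −2.20 and −1.67 (edgeR adjusted p = 0.0233, 0.00228 and 0.00992). In the background-limited fit 7 of 8 endothelial, 2 of 6 fibroblast and 1 of 4 adipocyte markers were lower, beside 1 of 5 mural members. The median log2 fold changes there were −1.31, −0.15, −0.87 and −0.41, in that order. No listed marker was at 0 in all 6 libraries.

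Of the 15 macrophage identity markers, 0 passed in edgeR's test and 2 were under 0.05 before adjustment. DESeq2 called 3 of the 15 lower, beside 4666 of 23055 genes, and limma voom 5, beside 6880, so both were near the shares over all genes. The median log2 fold change of the markers was −0.65, and it turned to 0.29 in the background-limited fit. There 0 of 14 passed in edgeR's test and 5 were higher before adjustment. Without HFD+MGIG 2, 5 of 15 passed as lower in the fit over all filtered genes, beside 5563 of 25019 genes. In the background-limited fit without that library, 6 of 14 passed as higher, beside 154 of 2604 genes. In a separate fit with the bound subtracted, 6 of 15 passed as higher, beside 1613 of 13577 genes. With all 6 libraries and all filtered genes, Lyz2, C1qb and Csf1r had −0.51, −0.43 and −1.06 (edgeR adjusted p = 0.458, 0.492 and 0.143). For the sort proteins, the log2 fold change of the CD11b gene Itgam was −1.32 and that of Adgre1 −1.13 (adjusted p = 0.0545 and 0.0734 by edgeR). Itgam shares 68.7% of its 5024 exonic bases with the protein-coding gene Gm49368 on the same strand, so its count may be affected by that gene. The summed mural level over the summed macrophage level was 0.0547, 0.0798 and 0.0568 in HFD+MGIG 1, 2 and 3, and 0.139, 0.122 and 0.0811 in HFD 1, 2 and 3. The part of the other cell types, of depth and of the silent-family counts in the lower mural markers was not tested.

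**Figure D5:**
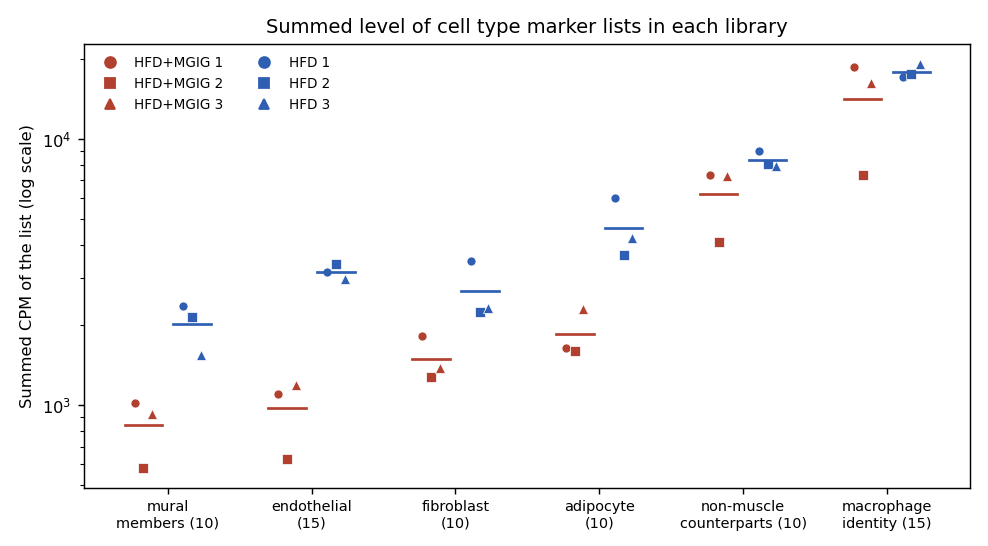
Summed CPM of the markers of each cell type in each library (log axis), HFD+MGIG in red and HFD in blue, with strokes at group means and the number of genes in brackets. The mural, endothelial, fibroblast, adipocyte and non-muscle counterpart sums do not overlap between the groups, while the macrophage sum of HFD+MGIG 1, 18719 CPM, lies within the HFD range.

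The 5 genes whose profile over the 6 libraries was nearest to the mean mural profile were Pcolce, an enhancer of procollagen processing, Mfge8, a secreted phosphatidylserine-binding protein, Igfbp5, a binding protein of insulin-like growth factors, Tuba1a, an alpha-tubulin, and Cnn3, a calponin outside the members. Their root mean square distance, taken on log2 CPM centred on each gene's mean, was 0.0495 to 0.0821, out of 9886 protein-coding genes with at least 10 CPM on average. The members themselves lay at 0.133 for Acta2, 0.163 for Myl9 and 0.205 for Tagln, and at 0.506, 0.649 and 0.999 for Myh11, Notch3 and Cspg4. Mfge8 had 137, 88.1 and 145 CPM in HFD+MGIG 1, 2 and 3 and 342, 325 and 256 CPM in HFD 1, 2 and 3. All 5 of these genes were nearer to the mean profile than any member was. They were picked as the smallest distances of 9886 genes, so that order was largely set by the choice.

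Across the table, edgeR called 9902 genes higher and 4113 lower with MGIG, and with library totals as the scale the split was 10428 and 2426. Leaving out HFD 2 gave 2551 lower genes and 6 lower members. Leaving out HFD 3 gave 2136 and 9, and leaving out HFD+MGIG 3 gave 2122 and 6. Without HFD 1, 6 members were called.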

How the data were processed

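RNA was amplified from 10 ng of total RNA with a SMART-Seq v4 low-input kit, per the labels' protocols. Estimated counts per Ensembl gene were deposited by the authors as 1 table; fastp, HISAT2, StringTie and mm10 are named in the submitters' processing notes, and the program that made the counts is not given in the sources used here. Counts were rounded to whole numbers. Symbols, positions and exon lengths were read from GENCODE M21 for mm10, with 51884 of 57180 IDs found. CPM were scaled by library totals (2214456 to 16740417).

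Groups were compared by quasi-likelihood in edgeR 4.0.16 (R 4.3.3; TMM, filterByExpr, group only, robust), with Benjamini-Hochberg adjustment over all genes and a threshold of 0.05. On counts simulated from HFD proportions, it recovered 48 of 100 changes of log2 size 1 and 62 of 100 of log2 size 2. There were 8 false calls, with 15158 genes tested. That simulation held no background difference between the groups, so it cannot show how the fit behaves under the one seen here. Ratios were compared with exact permutation tests (scipy 1.17.1). Alternatives were other scalings and filters, DESeq2 1.42.0, limma 3.58.1 voom, the replicate number as a block, each library left out, background-limited genes, subtracted background and a covariate. The fits with the bound subtracted and with protein-coding genes alone were added after seeing the data, as was leaving out each library in the background-limited fit. The members, lists and tests were chosen with earlier results of these data known. Genes named are the members, the 3 of each list with the highest mean CPM, the sort genes and the 5 nearest profiles, with exceptions stated. No adjusted p comes from the members alone. Exon overlaps were taken from GENCODE.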

Additional observations from a re-analysis of the deposited data

How the results depend on the processing

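The 9 lower members stayed at 8 or 9 under the other scalings, filters and tools and with protein-coding genes alone, and at 6 to 9 with a library left out. They were 1 of 5 on the background-limited scale (0 to 2 with a library left out as well), 5 with the median background subtracted, 3 of 9 with the bound subtracted and 0 with the silent-family covariate. In these 4 settings the lower count over all genes was 163 (54 to 189, with 55, 92, 93 and 112 between, with a library left out as well), 1813, 5942 and 0, and the higher count 117 (12 to 154, with 17, 19, 71 and 106 between), 4046, 1613 and 0. The genes tested in them numbered 2604, 17266, 13577 and 23055. Further counts that moved were 18253 higher genes with no filter, 4582 higher and 1574 lower at 5 CPM in 3 libraries, 4104 higher and 1374 lower with protein-coding genes alone, 2426 lower with library totals and 6880 lower with limma voom. With a library left out 2122 to 5563 genes were lower. Of 25 further smooth muscle and pericyte genes 17 were lower, and of 31 SRF, Notch and PDGF genes 22; on the background-limited scale these were 3 and 2 of 5 each (0 to 3 and 0 to 2 with a library left out), with median subtraction 7 and 7, with the covariate 0 and 0, and with protein-coding genes alone the second was 14. The sign turned for Cspg4 with library totals (0.049), at 5 CPM (0.13) and with protein-coding genes alone (0.23), and for Myl9 with the bound subtracted (0.037). Among the ratios it turned with the median background subtracted for Myh11 to Myh9 (0.0097) and Des to Vim (−0.49), and by leaving out a library for Myl9 to Myl12a (−0.22 to 0.025) and Des to Vim (−0.17 to 0.12). The median of all genes was 0.38 with TMM, 0.54 with DESeq2's size factors and 0.74 with library totals. Same-numbered libraries had correlations of their deviations of 0.09, 0.27 and 0.09, and differently numbered ones of −0.23 to 0.16. The numbers are not stated to pair samples and were not taken as pairs. With the replicate block 9 members, 9833 higher and 4312 lower genes were called. The causes were not tested. The HFD+MGIG counts of Cnn1, Notch3 and Cspg4 were below the background bound in all 3 libraries, and no fit at matched depth was made.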

Other observations

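Desmin and the actins are also made by skeletal muscle, so 13 skeletal muscle markers were read as well. Their summed level was 29.6, 45.2 and 23.7 CPM in HFD+MGIG 1, 2 and 3 and 61.0, 22.5 and 41.7 CPM in HFD 1, 2 and 3, and the groups overlapped. Of the 9 that passed the filter, 2 were lower and 0 higher in edgeR's test, a share near the 17.8% of all genes and 26.8% of protein-coding genes called lower: Acta1, the skeletal alpha-actin, with −1.31 (edgeR adjusted p = 0.0305), and Myh1, a fast myosin heavy chain, with −3.04 (edgeR adjusted p = 0.00198). Ckm, the muscle creatine kinase, had 9.40 ± 7.64 CPM in HFD+MGIG and 2.62 ± 2.47 CPM in HFD (1.45, edgeR adjusted p = 0.0967), and Myl1, a fast myosin light chain, had 3.71 ± 1.31 CPM in HFD+MGIG and 4.26 ± 1.96 CPM in HFD. For all 13, the background bound was not exceeded by the mean over HFD+MGIG libraries.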
